A study of Mus musculus with 2 samples.

Results

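The 43 genes described here encode heat shock proteins, chaperonins and the co-chaperones that work with them in the cytosol and, for a few, in mitochondria. They were taken by gene symbol from a list, are called members below, and all 43 were found among the 21829 genes of the C2C12 data. C2C12 cells are mouse myoblasts that grow as a permanent line, and both groups were grown alike in DMEM with fetal bovine serum and gentamicin. The WT group is the line without the edit, and in the GNE KO group Cas9 was used to cut exon 2 of Gne, the gene of the enzyme that starts sialic acid synthesis. Single clones were expanded after the editing, so the KO library may stand for 1 clone. Each group has 1 library of polyadenylated RNA, so that no difference below has a replicate check, a test or an error, and the number of reads behind each value is unknown. Although the genes are grouped as cytosolic, Hspa9, Hspd1, Hspe1 and Dnaja3 are known as mitochondrial proteins and Hspa13 as a microsomal one.

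Chaperones bind proteins that are not yet, or no longer, folded. HSP70 proteins hold short stretches of a client in a cycle driven by ATP, in which J-domain proteins deliver the client and BAG and HSP110 proteins exchange the nucleotide. HSP90 acts later on nearly folded clients with its own co-chaperones, small heat shock proteins keep unfolded clients from aggregating without ATP, and the ring-shaped chaperonins enclose them. Most of these genes are active in unstressed cells, and under heat or other protein damage heat shock factors raise some of them further. In muscle, small heat shock proteins and Bag3 are known for protecting the contractile apparatus, and Bag3 with Hspb8, Hspa8 and the ubiquitin ligase Stub1 routes damaged filamin to autophagy.

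Values are taken as FPKM, a level scaled for transcript length and depth, so genes may be compared within a library. The deposited data do not name the unit. Differences are log2((KO + 1)/(WT + 1)), which understates the difference of low genes, and more than 2-fold or 1.5-fold means a difference of that size on this scale. Gne itself had 6.67 FPKM in WT and 7.34 FPKM in the library labelled KO, so the level of its RNA does not check the labels. Of the markers fixed for myoblasts, Des, Cdh15 and Chrna1 had 97.6, 16.6 and 15.3 FPKM in WT and 3.84, 0.70 and 0.92 FPKM in KO. Myod1 was 59.97 FPKM in WT and listed at 0 in KO, Myf5 was 9.14 and 20.3 FPKM, and Pax7 was listed at 0 in both. Of 10 markers of differentiated myotubes, Acta1 and Mylpf alone reached a mean of 1 FPKM, and the whole list summed to 3.54 FPKM in WT and 5.18 FPKM in KO. The 7 fibroblast markers summed to 259 FPKM in WT and 942 FPKM in KO. Of these, Col1a2 was 237 and 621 FPKM, Col1a1 was 9.66 and 273 FPKM, and Postn was 0.44 and 33.9 FPKM. Pdgfra, at 10.8 and 12.3 FPKM, differed little, and Dcn was 0.27 and 1.68 FPKM. Thy1 and Lum were listed at 0 in both libraries. The macrophage markers summed to 3.10 and 1.58 FPKM, with Ptprc and Adgre1 at 0 in both, and the 7 proliferation markers summed to 830 and 849 FPKM. The part of these differences in the values below was not tested. None of 10 housekeeping genes was listed at 0.

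Most of the chaperone genes had nearly the same level in both libraries. Of the 43 genes, 40 had a mean of at least 1 FPKM, and among these 14 were higher and 26 lower in KO, with a median log2 fold change of -0.074. Of all 10542 genes past this filter, 5348 were higher and 5192 lower in KO, with a median of 0.0061. The quartiles of the 40 genes were -0.24 and 0.13, against -0.21 and 0.23 for all genes, and 22 of the 40 lay inside the latter. None of the 40 was more than 2-fold higher in KO, where 2.84% of all genes were, and Hspb1 and Dnaja2 were more than 2-fold lower, where 3.43% of all genes were. Beyond 1.5-fold, Bag2 and Hspa2 were higher, against 7.68% of all genes, and Hspb1, Dnaja2 and Hsf1 were lower, against 7.5% of all genes. Each of these counts rests on at most 3 of 40 genes, and none stands apart from the share among all genes. Scaling by the median of ratios or to equal totals changed the sign of none of the 40.

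**Figure D1:**
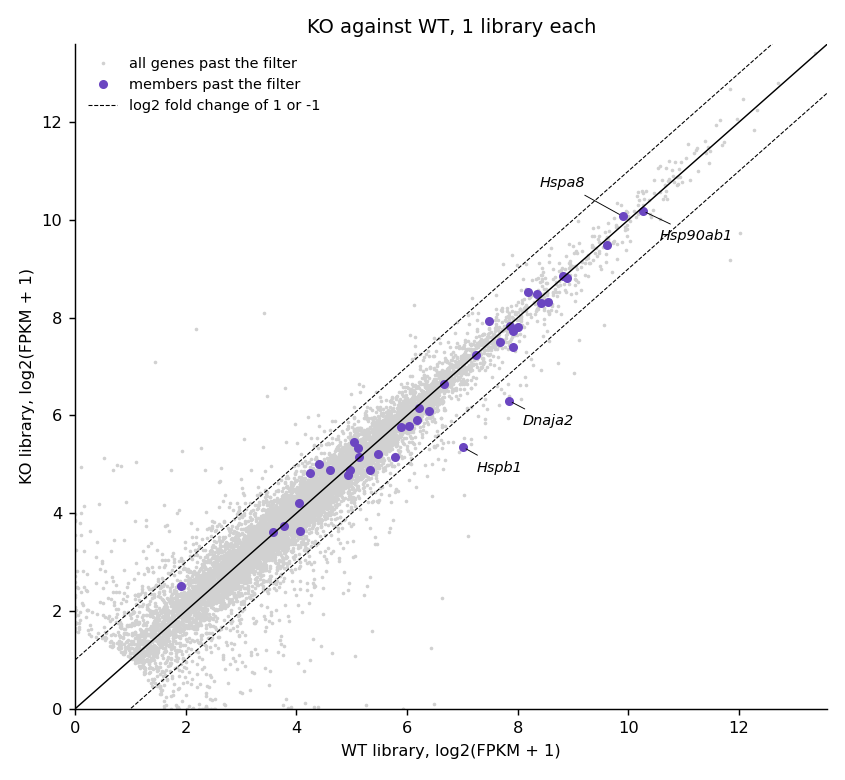
Level in the KO library against level in the WT library, both in log2(FPKM + 1), with 1 library each. Grey points are the 10542 genes past the filter, purple points are the 40 chaperone genes past it, the solid line marks equal levels and the dashed lines a log2 fold change of 1 or -1. Hspb1 and Dnaja2 are the only purple points below the lower dashed line, and none lies above the upper one.

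The group spans a wide range of levels. The 5 highest were Hsp90ab1, with 1225 FPKM in WT and 1164 FPKM in KO, Hspa8 with 953 and 1079 FPKM, Hspe1 with 780 and 716 FPKM, Hsp90aa1 with 471 and 447 FPKM, and Hspd1 with 453 and 463 FPKM. Hsp90ab1 ranked 63 in WT and 66 in KO among all genes, and Hspa8 ranked 87 and 74. Of the 43 genes, 16 were among the 500 highest genes of the WT library and 14 among those of the KO library. Together the 43 genes made up 1.40% of the summed FPKM in WT and 1.32% in KO, and the 5 highest alone 0.68% and 0.67%. At the other end, Hspa1a, the HSP70 gene most strongly induced by heat, was 0.058 FPKM in WT and 0.015 FPKM in KO. Hspb7, a small heat shock protein of heart and muscle, was 0.031 and 0.22 FPKM, and Hspb3, another muscle member, was listed at 0 in both. These 3 genes did not reach the filter, and no fold change is given for them.

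**Figure D2:**
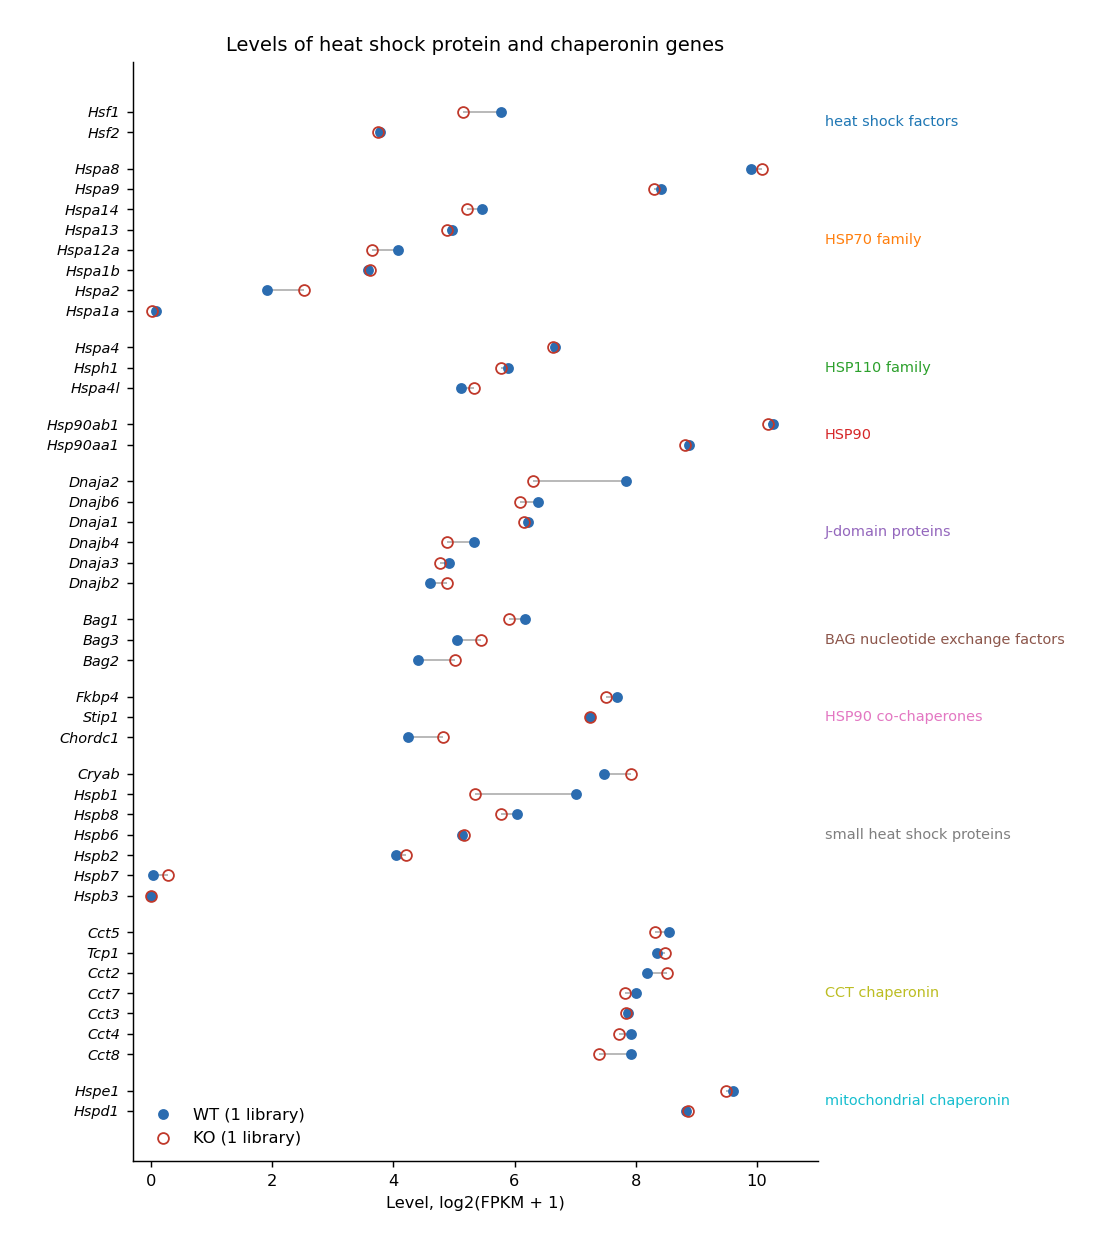
Level of each of the 43 genes in log2(FPKM + 1), grouped by role and ordered by mean level within a role. Filled blue points are the WT library and open red points the KO library, 1 each, and a grey line joins the 2 values of a gene. Most pairs nearly coincide, and the longest lines belong to Hspb1 and Dnaja2.

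Of the heat shock factors, which bind heat shock elements in their target promoters, Hsf1 is the main activator of the stress response and Hsf2 a partner that acts with it. Hsf1 was 53.7 FPKM in WT and 34.6 FPKM in KO, a log2 fold change of -0.62. Hsf2 was 12.7 and 12.4 FPKM, a log2 fold change of -0.035. Hsf1 lies on chromosome 15 from 76361558 to 76388138 (GRCm39, GENCODE vM39), and of the 126 genes past the filter whose start lies within 5 Mb of its start, 108 were lower in KO, with a median of -0.40. After subtraction of that median, Hsf1 was -0.22 and Hsf2, on chromosome 10 among neighbours with a median of 0.28, was -0.31. Among the other genes of this kind, Hsf4 was 3.94 and 8.55 FPKM, a log2 fold change of 0.95. Hsbp1, whose product binds heat shock factor 1, was 55.7 and 83.6 FPKM, a log2 fold change of 0.58. Both lie on chromosome 8, where their neighbours had medians of 0.23 for Hsf4 and 0.33 for Hsbp1. Relative to these medians Hsf4 was 0.72 and Hsbp1 0.24. Hsf3, Hsf5 and Hsbp1l1 were at 0.040 FPKM or less in both libraries.

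A strict form of the heat shock element was searched on both strands in the RefSeq promoters of build GRCm38.p6, which run from 250 bases before to 50 bases after a start. It has 3 units in turn, each 2 bases apart, written GAANNTTCNNGAA or TTCNNGAANNTTC. It was found for 5 of the 34 chaperone genes with a promoter in the table, 14.7%, and for 0.662% of all 27025 genes with one. The members without one, Hsf1, Hspa8, Hspa9, Hspa13, Hsp90aa1, Hsp90ab1, Hspb2, Cryab and Cct4, were not searched. The 5 genes with a match were Hspd1, Hspe1, Chordc1, Dnajb6 and Hsph1. Their log2 fold changes of 0.030, -0.12, 0.58, -0.31 and -0.13 had no common direction. These 5 genes were picked by the match itself, and the matched stretches are shown with the matched units in capitals. The stretches are chr1:55088039-55088096 on the plus strand for Hspe1, chr9:18292243-18292296 on the plus strand for Chordc1, chr5:29735832-29735884 on the plus strand for Dnajb6 and chr5:149636288-149636300 on the minus strand for Hsph1, all in GRCm38.p6.
Hspe1: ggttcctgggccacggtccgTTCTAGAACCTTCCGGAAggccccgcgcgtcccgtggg
Chordc1: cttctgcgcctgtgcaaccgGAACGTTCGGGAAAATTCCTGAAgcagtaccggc
Dnajb6: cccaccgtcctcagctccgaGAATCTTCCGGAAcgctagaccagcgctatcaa
Hsph1: TTCTGGAAAGTTC
In Hspe1 the units begin 89 bases before the start, and the same 18 bases, read on the other strand, begin 144 bases before the start of Hspd1. In Chordc1, 3 overlapping matches run together over 23 bases across the start itself, and in Hsph1 the match lies after the start. A match is a stretch of letters, and binding was not measured.

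Among the HSP70 proteins, the constitutive Hspa8 was by far the highest, at 953 FPKM in WT and 1079 FPKM in KO, a log2 fold change of 0.18. Of the 39 genes around it on chromosome 9, 36 were higher in KO, with a median of 0.45, and relative to that median Hspa8 was -0.27. Copies share 63.9% of its 75-base windows, so part of its reads could have been placed elsewhere. Hspa9, the HSP70 of mitochondria, was 342 and 314 FPKM, a log2 fold change of -0.12. The heat-inducible Hspa1b was 11.004 and 11.249 FPKM, so that Hspa8 was 86.6 times as high as Hspa1b in WT and 96.0 times in KO. Hspa1a and Hspa1b are near-identical copies, and 55.8% of the 75-base windows of the Hspa1b transcript also occur in those of Hspa1a, so their separate values are uncertain. Hspa2, best known from the testis, was 2.79 FPKM in WT and 4.74 FPKM in KO, the largest positive difference of the family with a log2 fold change of 0.60. Hspa12a, a distant relative, had the largest negative difference with 15.8 and 11.5 FPKM, a log2 fold change of -0.42. Hspa14, which acts at the ribosome, was 43.3 and 35.9 FPKM, and Hspa13 was 30.2 and 28.5 FPKM. Summed over its 8 genes, the family was 1398 FPKM in WT and 1486 FPKM in KO.

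The HSP110 proteins, distant HSP70 relatives that exchange its nucleotide, were close to equal in both libraries. Hspa4 was 101 FPKM in WT and 98.7 FPKM in KO, Hsph1 was 58.7 and 53.6 FPKM, and Hspa4l was 33.8 and 39.4 FPKM. Their log2 fold changes ran from -0.13 to 0.22. Other genes of the HSP70 cycle, a list of 16 cytosolic co-chaperones, had a median of -0.041, with 1 gene more than 2-fold lower and 0 higher on the scale with the pseudocount. Without the pseudocount Dnajb5, at 0.94 FPKM in WT and 2.21 FPKM in KO, was 2.35 times as high in KO.

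The J-domain proteins bring clients to HSP70 and start its ATP cycle. Dnaja2 was the highest of the 6 in WT, at 229 FPKM, and was 77.9 FPKM in KO, a log2 fold change of -1.54. Its ratio to Dnaja1, a close relative that was 73.8 and 70.1 FPKM, was 3.10 in WT and 1.11 in KO. Dnaja2 lies on chromosome 8 from 86264259 to 86282031 on the minus strand (GRCm39). All 64 genes past the filter within 5 Mb of it were lower in KO, 51 of them more than 2-fold, with a median of -1.46. After subtraction of this median the log2 fold change of Dnaja2 was -0.080. The best known heat-inducible J-domain gene, Dnajb1, is not on the list of 43 and lies in the same stretch. Dnajb1 was 93.2 FPKM in WT and 33.6 FPKM in KO, a log2 fold change of -1.45, with 69 of 69 neighbours lower and a median of -1.44. Dnaja2 and Dnajb1 thus differed by about as much as the genes around them, and the part of that stretch in their values was not tested. No 75-base window of Dnaja2 occurs in the transcripts of another gene.

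The other J-domain genes differed less. Dnajb4 was 39.2 FPKM in WT and 28.6 FPKM in KO, a log2 fold change of -0.44, while the 13 genes around it had a median of 0.18. Dnajb6, which holds back protein aggregation and is mutated in a limb-girdle muscular dystrophy, was 82.9 and 66.8 FPKM, a log2 fold change of -0.31, and 33.0% of its windows occur in other genes. The mitochondrial Dnaja3 was 29.4 and 26.3 FPKM. Dnajb2 was the only one of the 6 higher in KO, at 23.3 and 28.5 FPKM, a log2 fold change of 0.28. Without Dnaja2 the log2 fold changes of the group lay between -0.44 and 0.28.

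Among the BAG proteins, which release the client from HSP70, the balance between members differed between the libraries. Bag2, an inhibitor of the ubiquitin ligase Stub1, was 20.2 FPKM in WT and 31.3 FPKM in KO, a log2 fold change of 0.61. This was close to the 0.60 of Hspa2, and without the pseudocount the FPKM of Hspa2 was 1.70 times and that of Bag2 1.55 times as high in KO. Bag3 was 32.0 and 42.8 FPKM, a log2 fold change of 0.41. Bag1, which links HSP70 to the proteasome, was 71.5 and 58.9 FPKM, a log2 fold change of -0.28. The ratio of Bag1 to Bag3 was accordingly 2.23 in WT and 1.38 in KO. Their neighbours had medians between -0.020 and 0.094, and the signs stayed after subtraction of these medians.

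The partners of Bag3 in chaperone-assisted autophagy were read together because autophagy was the subject of the study. Hspb8 was 64.7 FPKM in WT and 54.0 FPKM in KO, a log2 fold change of -0.26, and Stub1 was 104 and 106 FPKM. The client filamin genes Flna and Flnc had log2 fold changes of 0.31 and 0.40. Synpo2, which binds Bag3, was 3.86 and 1.69 FPKM, a log2 fold change of -0.85, and the autophagy receptor Sqstm1 was 411 and 414 FPKM. Of the 6 partners that are not members, 5 were higher and 1 lower. None passed 2-fold on the scale with the pseudocount, although the FPKM of Synpo2 was 2.29 times as high in WT as in KO.

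The HSP90 genes kept their ratio. Hsp90ab1, the constitutive form, and Hsp90aa1, the inducible form, had the same log2 fold change of -0.074, and their ratio was 2.60 in both libraries. Relative to the genes around them the values were 0.041 for Hsp90ab1 and -0.21 for Hsp90aa1. For Hsp90aa1, 43.0% of the windows occur in other genes, chiefly Gm12346. Of the co-chaperones, Stip1, which joins HSP70 to HSP90, was 151 FPKM in both, and Fkbp4, the immunophilin of steroid receptor complexes, was 204 and 180 FPKM. Chordc1, which binds HSP90 through its CHORD domains, was 18.0 FPKM in WT and 27.3 FPKM in KO, a log2 fold change of 0.58. On chromosome 9, 65 of 76 genes around it were higher too, and relative to their median of 0.30 its value was 0.28. The 16 other HSP90 co-chaperones past the filter had a median of 0.024, with none beyond 1.5-fold. Their log2 fold changes ran from -0.56 for Ahsa2, an activator of the HSP90 ATPase, to 0.42 for Cdc37, which brings kinases to HSP90.

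The small heat shock proteins held the largest single difference. Hspb1, also known as Hsp25 in the mouse, binds unfolded proteins and actin filaments. It was 128 FPKM in WT and 39.9 FPKM in KO, a log2 fold change of -1.66 and a 3.21-fold lower FPKM. Hspb1 lies on chromosome 5 from 135916760 to 135918417 on the plus strand (GRCm39), and the 100 genes around it had a median of -0.10, with 0 more than 2-fold different in either direction. After subtraction of that median its log2 fold change was -1.55, and Hspb1 was the only member that stayed more than 2-fold lower. Of its 75-base windows, 41.8% also occur in a pseudogene, Hsp25-ps1, which is not analysed here, and how reads were divided between the copies is unknown.

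Cryab, the small heat shock protein that binds desmin and other muscle filaments, differed in the other direction. It was 178 FPKM in WT and 243 FPKM in KO, a log2 fold change of 0.45, and 52 genes around it on chromosome 9 had a median of 0.32. The ratio of Cryab to Hspb1 was 1.39 in WT and 6.08 in KO. Hspb2, a muscle gene on the opposite strand inside the annotated span of Cryab, was 15.5 and 17.5 FPKM, a log2 fold change of 0.17, and reads of overlapping genes are separated only if the counting used strand, which is not given in the sources used here. Hspb6, a small heat shock protein of muscle, was 34.0 and 34.7 FPKM. Summed over its 7 genes, this group was 420 FPKM in WT and 389 FPKM in KO.

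The CCT chaperonin is a double ring of different subunits that folds actin and tubulin. The 7 subunit genes measured here, Tcp1, Cct2, Cct3, Cct4, Cct5, Cct7 and Cct8, lay between 233 and 374 FPKM in WT and between 168 and 365 FPKM in KO. The ratio of the highest to the lowest was 1.61 in WT and 2.18 in KO, where Cct2 was the highest and Cct8 the lowest. Cct2 was 290 FPKM in WT and 365 FPKM in KO, a log2 fold change of 0.33, and Cct8 was 242 and 168 FPKM, a log2 fold change of -0.53. Both lie among neighbours that differed the same way, with medians of 0.38 over 29 genes on chromosome 10 and -0.33 over 34 genes on chromosome 16. The log2 fold changes of the 7 subunits spanned 0.86 as measured and 0.24 after subtraction of each subunit's neighbours, when they ran from -0.20 to 0.038. The median of the 7 was -0.18 as measured and -0.14 after the subtraction. Whether the neighbours had a part in the uneven subunits was not tested.

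The genes that work with CCT differed little. The 9 prefoldin subunits and other chaperonin cofactors had a median of 0.041 and ran from -0.38 to 0.14. Of the 10 actin and tubulin genes, the clients of CCT, 8 were higher and 2 lower, with a median of 0.12, and none was beyond 1.5-fold.

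The mitochondrial chaperonin consists of Hspd1, which forms the ring, and Hspe1, its lid. Hspd1 was 453 FPKM in WT and 463 FPKM in KO, a log2 fold change of 0.030, and Hspe1 was 780 and 716 FPKM, a log2 fold change of -0.12. The ratio of Hspe1 to Hspd1 was 1.72 in WT and 1.55 in KO. The genes overlap on opposite strands of chromosome 1, and 24.4% of the 75-base windows of Hspd1 occur in other genes, chiefly Hspd1-ps3. The 13 other mitochondrial chaperones and proteases had a median of -0.049, with none beyond 1.5-fold.

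**Figure D3:**
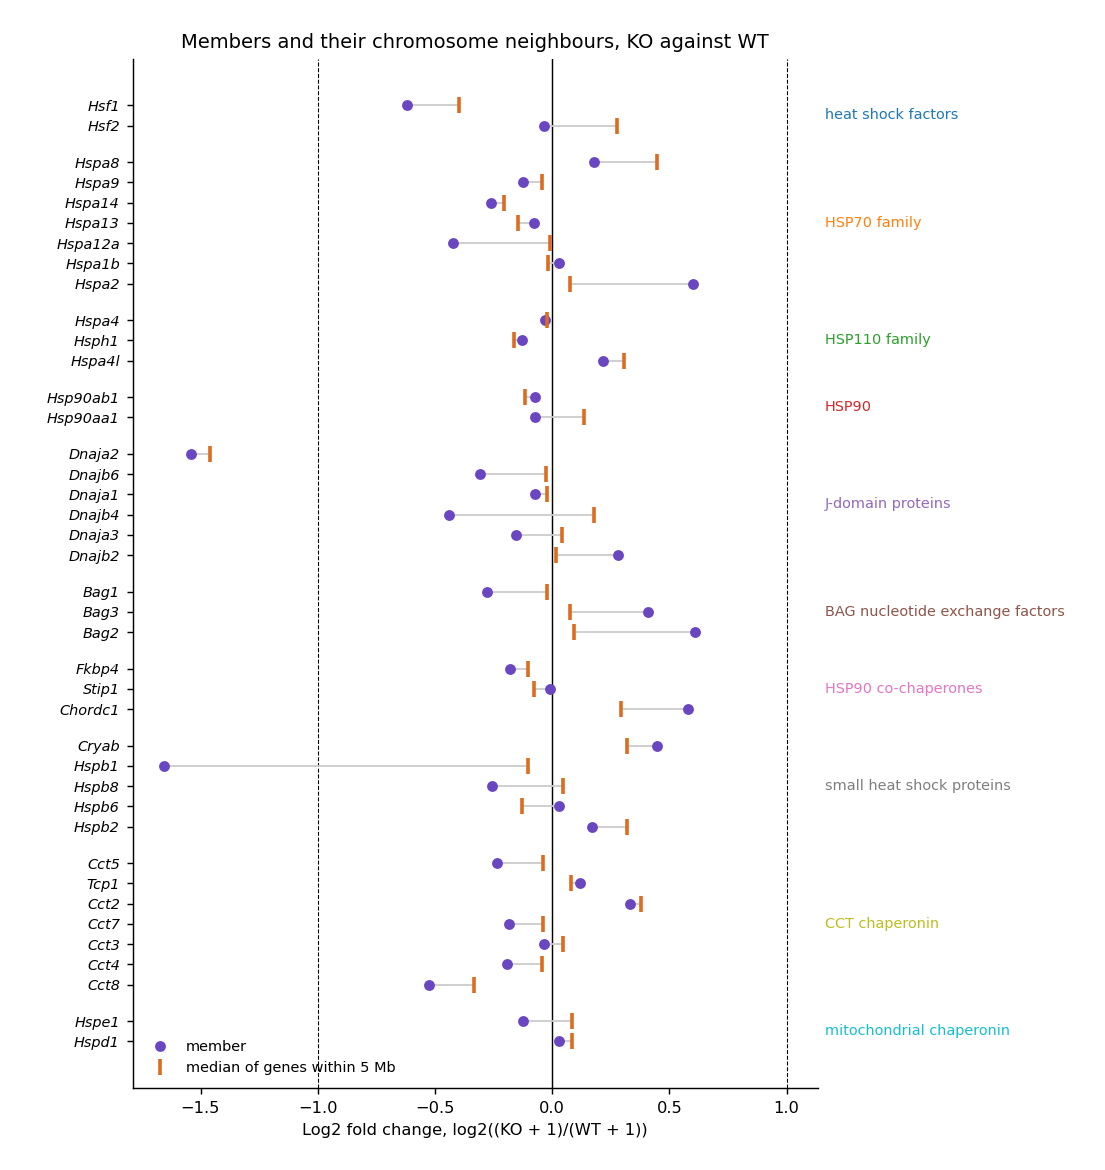
Log2 fold change of the 40 genes past the filter, grouped by role and ordered by mean level (purple points), beside the median log2 fold change of the other genes that start within 5 Mb (orange ticks). Dashed lines mark 1 and -1. Dnaja2 at -1.54 sits beside its tick at -1.46, whereas Hspb1 at -1.66 stands far from its tick at -0.10.

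Across the 40 genes, subtraction of the neighbours changed the sign of 9, among them Hspa8, Cct2, Hspd1 and Hsp90ab1. The median over the 40 was -0.079 after the subtraction. Beyond 2-fold, 1 gene was then lower in place of 2. Beyond 1.5-fold, 0 were then higher in place of 2, and 2 were lower in place of 3, namely Hspb1 and, at -0.62, Dnajb4, without Hsf1 and Dnaja2. Counts over all genes fell too, to 266 more than 2-fold higher and 268 lower in place of 299 and 362. Beyond 1.5-fold they were 667 and 582 in place of 810 and 791, with genes without a position left out. Hspa13 has only 5 neighbours within 5 Mb, so its subtraction rests on few genes.

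The chaperones of the endoplasmic reticulum, fixed as a list of 17 for comparison, had a median of 0.18, with 12 higher and 5 lower. Hsp90b1, the HSP90 of this compartment, was 274 FPKM in WT and 445 FPKM in KO, a log2 fold change of 0.70, against -0.074 for both cytosolic forms, and its neighbours on chromosome 10 had a median of 0.34. Hspa5, the HSP70 of the compartment, was 367 and 361 FPKM. Calr was 837 and 492 FPKM, a log2 fold change of -0.77, within the stretch of chromosome 8 that holds Dnaja2. The neighbours of Calr had a median of -1.47, and relative to that median Calr was 0.71.

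**Figure D4:**
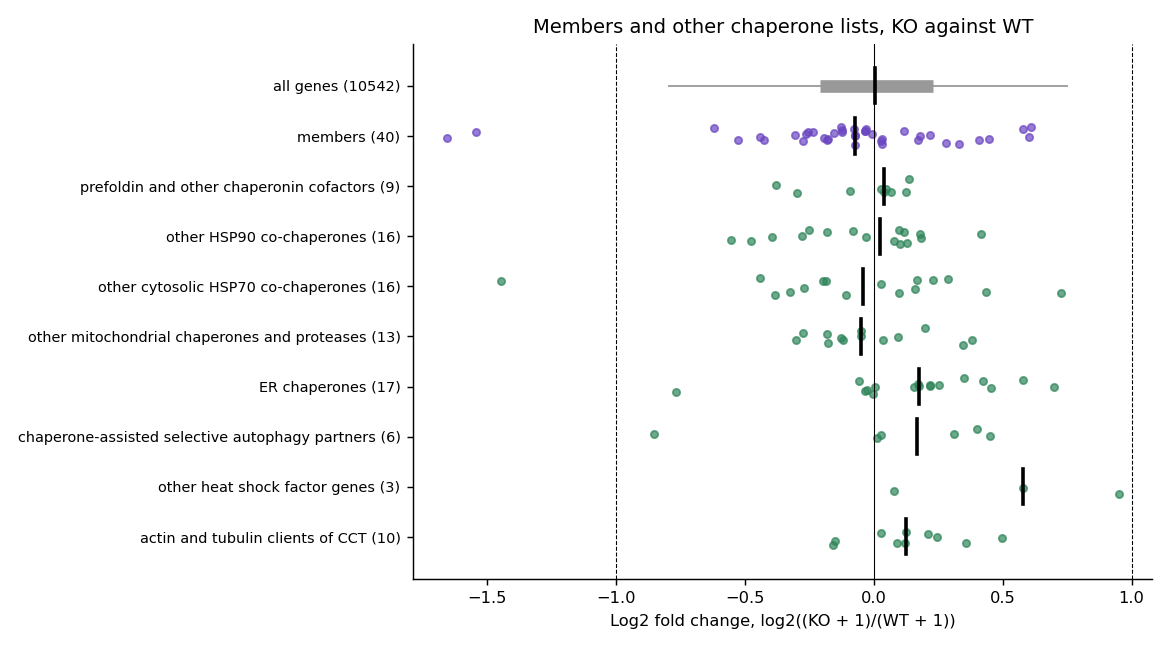
Log2 fold change of single genes past the filter in the chaperone group and in 8 further lists, with the number of genes in parentheses (x axis, log2((KO + 1)/(WT + 1))). Each point is a gene, black bars are medians, and for all genes the thick grey bar spans the quartiles and the thin line the 5th to the 95th percentile. Dashed lines mark 1 and -1. The median of the members is -0.074, that of the chaperones of the endoplasmic reticulum is 0.18, and beyond the dashed lines lie Hspb1, Dnaja2 and, among the HSP70 co-chaperones, Dnajb1.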

How the data were processed

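The authors deposited 1 value per gene symbol for each of 2 libraries, WT and KO. The unit is not named, and the deposited values are taken as FPKM because their totals differ; the methods name expected counts and TPM, and a TPM table with rows left out would look alike. The methods describe trimming, STAR and RSEM with GRCm39. The submitters' processing notes list Trim Galore 0.6.6, STAR 2.7.9a, RSEM 1.3.3 and GRCm38, and the library kit also differs between methods and labels.

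The files held 21853 rows, and where symbols recurred (24 rows) the higher row by mean was used. Log2 fold changes took a pseudocount of 1, after a filter on the mean of both libraries, which had to reach 1 FPKM. GENCODE vM39 placed 10171 of the 10542 genes by symbol. Neighbours are other genes past the filter that start within 5 Mb. Windows of 75 bases of the longest coding transcript were looked up in all GENCODE transcripts, a step added after the files had been seen. With 1 library per group no test was run, and the depth is unknown. Members, lists and rules were chosen with earlier results of these data known. Members are named with their values. Genes of other lists beyond 2-fold, or at 0 in 1 library, were named by rule, and the rest after their values were seen. The alternatives were pseudocounts, filters, scalings, subtraction of the neighbours and summed rows. Calculations were tested on simulated data. Cct6a is not analysed here. Python 3.11.15, numpy 2.4.6, pandas 2.3.3 and matplotlib 3.10.9 were used.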

Additional observations from a re-analysis of the deposited data

How the results depend on the processing

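With 1 library per group no library could be left out. No paired analysis was possible because each group has 1 library and no result comes from a test. The count of 0 genes more than 2-fold higher was 0 under all 8 alternatives, and the count of 2 more than 2-fold lower became 1 only after subtraction of the chromosome neighbours. The 2 genes more than 1.5-fold higher became 0 with a pseudocount of 5, 1 with a mean of at least 5 FPKM and 0 after subtraction of the neighbours. They became 3 with a pseudocount of 0.1, when Chordc1 joined them at 0.60. The 3 genes more than 1.5-fold lower became 2 with a pseudocount of 5, when Hsf1 was -0.57, and 2 after subtraction of the neighbours. The median of the members lay between -0.089 and -0.071 under the alternatives, against -0.074 as reported. Of single genes, Dnaja2 went from -1.54 to -0.080 and Hspa8 from 0.18 to -0.27 after subtraction of the neighbours, and the other 317 values of single members under the alternatives moved by less than 0.44, the interquartile range of all genes. Over all genes, 102 were more than 2-fold higher and 176 lower at a pseudocount of 5, while the filter at 5 FPKM gave 145 and 221, against 299 and 362. Beyond 1.5-fold these counts were 395 and 445, and 504 and 523, against 810 and 791. A pseudocount of 0.1 gave 410 higher and 471 lower beyond 2-fold, and 973 and 928 beyond 1.5-fold. Subtraction of the neighbours gave 266 and 268 beyond 2-fold, and 667 and 582 beyond 1.5-fold. The depth of the libraries is unknown, so precision at low levels cannot be given.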
